A study of Mus musculus with 9 samples.

Results

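Autophagy and lysosomal degradation were followed through 37 mouse genes in germinal center (GC) B cells that carried Foxo1 or had it deleted. The genes were picked by name: 21 of the autophagy core, 14 lysosomal enzymes and membrane proteins, and Tfeb and Tfe3, 2 transcription factors of lysosomal genes. Each gene was read from its brightest probe set with a single gene symbol. Of the 37 genes, 36 had such a probe set and 35 were bright enough to test, among 10331 genes tested in all. Bnip3l was not analysed here, since its probe sets carry a second symbol. Ctsl was too dim to test: its signals ran from 13.4 to 36.3, under the median of each of the 9 arrays.

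In macroautophagy the ULK kinases and a lipid kinase complex around Beclin 1 start a membrane that WIPI proteins and ATG enzymes extend. ATG8-family proteins (LC3 and GABARAP) are fixed to that membrane, receptors such as p62 and BNIP3 bring cargo to it, and the closed autophagosome fuses with a lysosome, where cathepsins and glycosidases digest the content. FOXO factors are known in mouse muscle for raising autophagy genes, Bnip3 among them, and GC B cells in the dark zone of the follicle depend on FOXO1.

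The 9 Affymetrix mouse expression arrays held 3 genotypes with 3 arrays each: KO (FOXO1f/f, 2 floxed alleles), HET (FOXO1f/+, 1 floxed allele) and WT (FOXO1+/+, 0 floxed alleles). Every animal, WT included, carried Cg1-Cre, a recombinase that acts in B cells once they are activated, so deletion happens in cells already on the way into the GC and can be incomplete. Mice of 10 weeks received sheep red blood cells in 2 rounds, and on day 12 spleen B cells high for B220, PNA and CD95 were sorted. The sample labels speak of 1 animal per array and the design text of pools of spleen cells. If the arrays did not come from separate animals, p-values measure only the spread between these samples. The sources used here give neither strain nor sex.

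Signals are MAS5 intensities on a linear scale, and changes are differences of log2(signal + 2.09) between groups, which understates changes of dim genes. A gene is called where limma's Benjamini-Hochberg adjusted p over all 10331 genes was under 0.05. Signals of different genes are not comparable, since each probe set has its own response. Bulk signals cannot tell fewer cells of a type from less RNA per cell. Foxo1 read 983, 1392 and 727 on the KO arrays, 3633, 3581 and 3479 on the HET arrays, and 5432, 5299.9 and 5616 on the WT arrays. The 3 groups did not overlap, and Foxo1 was called lower in KO than in WT (log2 change -2.45 ± 0.16 SE, adjusted p = 2.41e-06). Its relatives Foxo3 (0.14, adjusted p = 0.257) and Foxo4 (0.19, adjusted p = 0.264) were not called. Of 12 GC B cell markers, 10 had a single-symbol probe set, and all 10 were bright enough to test. Between KO and WT 3 of the 10 were called, which is 30%, against 11.9% of all genes tested. Gcsam (-1.36, adjusted p = 1.52e-05) and Rgs13 (-0.25, adjusted p = 0.0143) were lower. Fas (0.30, adjusted p = 0.0131), which encodes the sorting marker CD95, was higher. The summed signal of the list was 64610 to 66404 on KO arrays, 67630 to 68766 on HET arrays and 65901 to 72327 on WT arrays.

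Among the 35 tested genes, 5 were called between KO and WT, which is 14.3%, against a background of 11.9% of all genes tested. The share lies near the background, so the count by itself is no result about these genes. The mitophagy receptor gene Bnip3 was lower in KO. The initiation kinase gene Ulk1 and 3 lysosomal genes, Hexa, Ctsa and Psap, were higher in KO. In the autophagy core 2 of 20 tested genes were called, 1 in each direction, with a median log2 change of -0.05. In the lysosomal group 3 of 13 were called, all higher in KO, with a median of 0.11. The median over all 35 was -0.004, against 0.01 over all 10331 genes. All genes split into 629 higher (6.09%) and 604 lower (5.85%).

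The split depends on how the arrays are scaled. Array medians were 47.4 to 48.0 on the KO arrays and 42.9 to 44.96 on the HET and WT arrays. When each array was centred on its median, the median change of all genes between KO and WT moved to -0.11, with 398 genes higher and 1683 lower. On that scale Ulk1 (0.30, adjusted p = 0.051), Hexa (0.26, adjusted p = 0.0552), Psap (0.17, adjusted p = 0.174) and Ctsa (0.13, adjusted p = 0.18) stayed positive and were no longer called. The 7 genes called on it were all lower in KO: Bnip3, Map1lc3b, Gabarapl2, Atg3, Atg4b, Lamp1 and Lgmn. After quantile normalization all 4 were called higher, with changes of 0.36 for Ulk1 (adjusted p = 0.037), 0.38 for Hexa (adjusted p = 0.0175), 0.30 for Psap (adjusted p = 0.0336) and 0.25 for Ctsa (adjusted p = 0.0309). Centred on the median of the tested genes, Ulk1 (0.40, adjusted p = 0.0193), Hexa (0.36, adjusted p = 0.0206) and Ctsa (0.24, adjusted p = 0.0345) were called and Psap was not (0.27, adjusted p = 0.0504). Bnip3 was called lower on each of these scales.

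**Figure D1:**
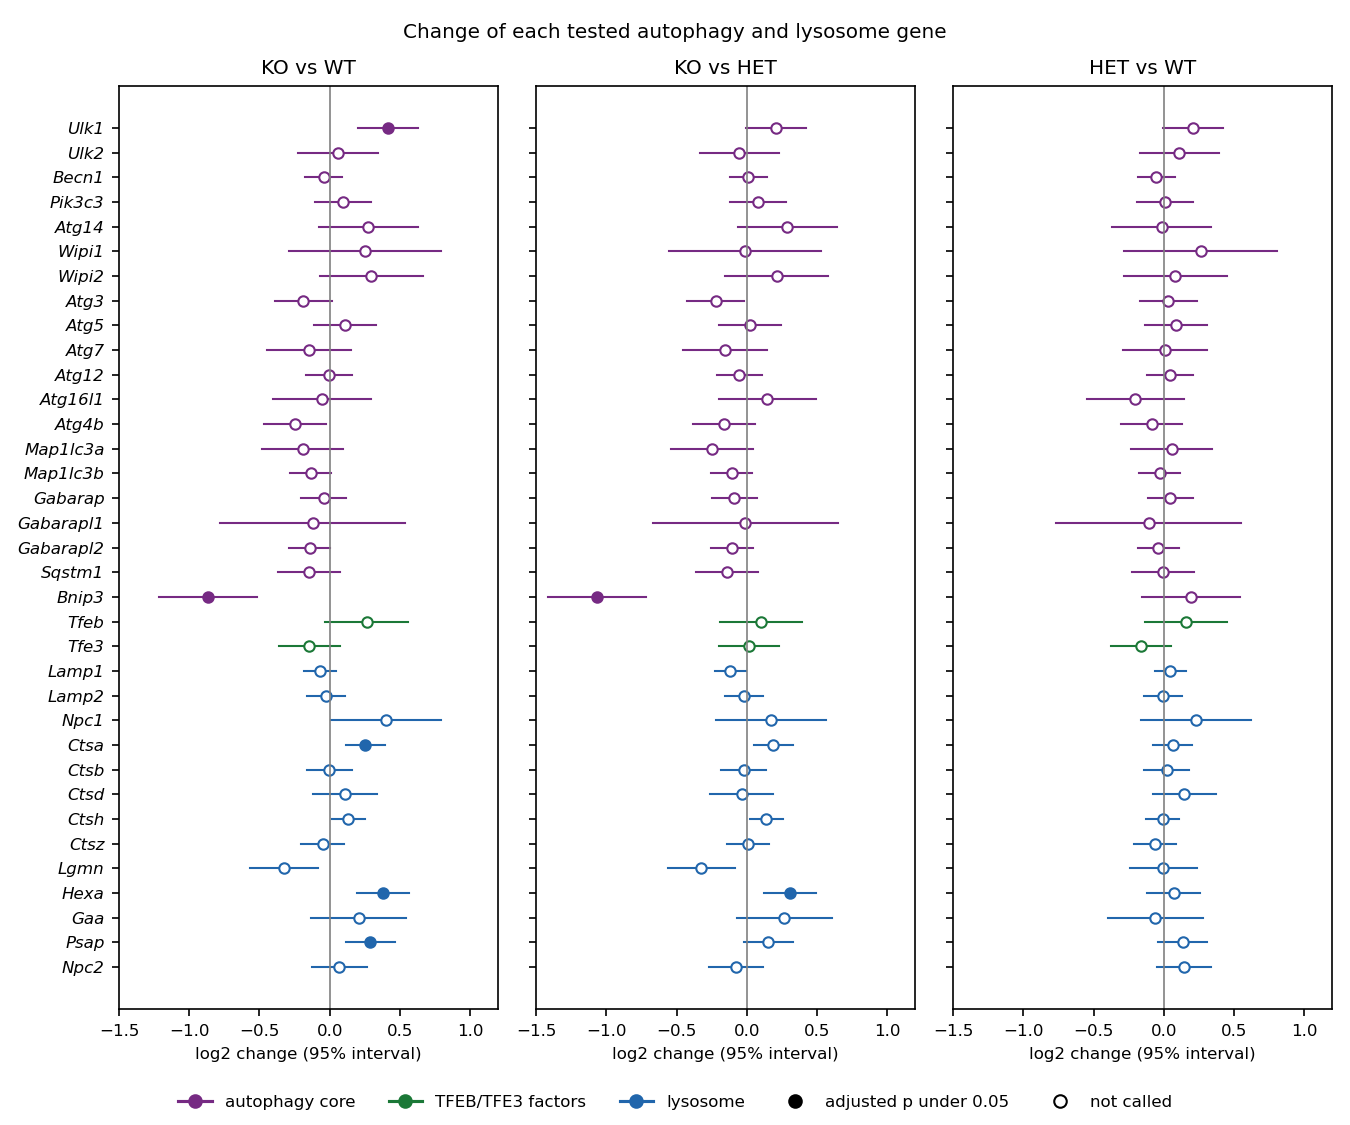
Log2 change of each of the 35 tested genes (rows) with its 95% interval, for KO vs WT (left), KO vs HET (middle) and HET vs WT (right); colour marks the autophagy core, the TFEB/TFE3 factors and the lysosomal genes, and filled points have an adjusted p under 0.05. Bnip3 stands to the left in both KO comparisons, 4 filled points lie to the right in KO vs WT, and HET vs WT has no filled point.

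Promoter letters were set beside these changes, since TFEB and TFE3 bind the E-box CACGTG in many lysosomal genes and FOXO factors bind TGTTTAC. RefSeq windows of GRCm38.p6, from 250 bases before to 50 bases after the annotated start, were at hand for 28 of the 37 genes (34 windows). CACGTG, which reads the same on both strands, was found in 11 of the 28 genes (39.3%), against 12.1% of the 8453 tested genes with a window and 8.09% of all 27025 genes with one. The 11 were Atg3, Atg5, Atg7, Atg14, Bnip3, Lamp1, Ctsa, Ctsd, Ctsl, Lgmn and Gaa. The longer form TCACGTG, searched on both strands and always overlapping CACGTG, was in 8 of 28 (28.6%), against 7.3% of tested genes. TGTTTAC, searched on both strands, was in 0 of 28 and in 3.21% of tested genes, a share so low that 0 of 28 tells nothing. Among the 5 genes called between KO and WT, an E-box was in the window of Bnip3, which was lower in KO. One was also in 1 of the 2 windows of Ctsa, which was higher, while the windows of Ulk1, Hexa and Psap had none. These genes are too few, and their calls too dependent on scaling, to relate letters to calls, and a link was not tested. The 5 windows below are shown to compare both called genes with E-boxes and the uncalled genes Lamp1, Ctsd and Atg3, which have more than 1 each. E-boxes are in capitals, and each sequence runs 5′ to 3′ along the gene's strand.
Bnip3, chr7:138909457-138909756, minus strand: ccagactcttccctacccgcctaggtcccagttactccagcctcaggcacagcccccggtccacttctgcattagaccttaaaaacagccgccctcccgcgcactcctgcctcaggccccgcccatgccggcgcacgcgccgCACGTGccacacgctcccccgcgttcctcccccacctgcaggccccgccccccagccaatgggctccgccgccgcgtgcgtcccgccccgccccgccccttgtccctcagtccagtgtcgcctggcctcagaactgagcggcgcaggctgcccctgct
Ctsa, chr2:164833523-164833822, plus strand: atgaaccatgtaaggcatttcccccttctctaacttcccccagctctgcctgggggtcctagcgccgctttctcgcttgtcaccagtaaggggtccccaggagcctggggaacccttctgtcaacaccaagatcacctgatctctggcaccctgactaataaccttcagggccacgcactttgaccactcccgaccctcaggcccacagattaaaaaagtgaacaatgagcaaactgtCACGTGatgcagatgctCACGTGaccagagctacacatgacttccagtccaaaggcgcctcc
Lamp1, chr8:13158911-13159210, plus strand: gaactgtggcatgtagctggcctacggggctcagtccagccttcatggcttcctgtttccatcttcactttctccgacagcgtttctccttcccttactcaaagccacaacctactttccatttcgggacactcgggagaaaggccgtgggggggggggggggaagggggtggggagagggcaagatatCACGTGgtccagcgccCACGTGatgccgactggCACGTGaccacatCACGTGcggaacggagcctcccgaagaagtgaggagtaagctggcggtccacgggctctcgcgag
Ctsd, chr7:142387778-142388077, minus strand: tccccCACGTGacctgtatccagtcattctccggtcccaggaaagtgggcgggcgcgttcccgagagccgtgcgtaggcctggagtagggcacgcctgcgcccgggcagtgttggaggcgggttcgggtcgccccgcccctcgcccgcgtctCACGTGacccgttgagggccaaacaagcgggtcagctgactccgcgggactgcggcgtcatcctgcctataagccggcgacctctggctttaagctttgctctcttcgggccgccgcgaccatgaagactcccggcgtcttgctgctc
Atg3, chr16:45158579-45158878, plus strand: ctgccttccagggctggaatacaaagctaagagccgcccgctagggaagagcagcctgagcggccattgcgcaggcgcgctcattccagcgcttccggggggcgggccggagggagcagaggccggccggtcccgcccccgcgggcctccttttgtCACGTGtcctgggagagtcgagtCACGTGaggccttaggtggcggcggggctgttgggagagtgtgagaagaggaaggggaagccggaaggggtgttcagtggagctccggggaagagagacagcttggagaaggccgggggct
The E-box of Bnip3 begins 108 bases before the annotated start. Ctsa has 2 E-boxes that lie on both sides of this annotated start, the first of them 12 bases before it, and the window at its other annotated start has 0. Lamp1 has 4 in a row, 61, 45, 28 and 15 bases before the start. A match in these letters is a description and does not show that a factor binds there.

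**Figure D2:**
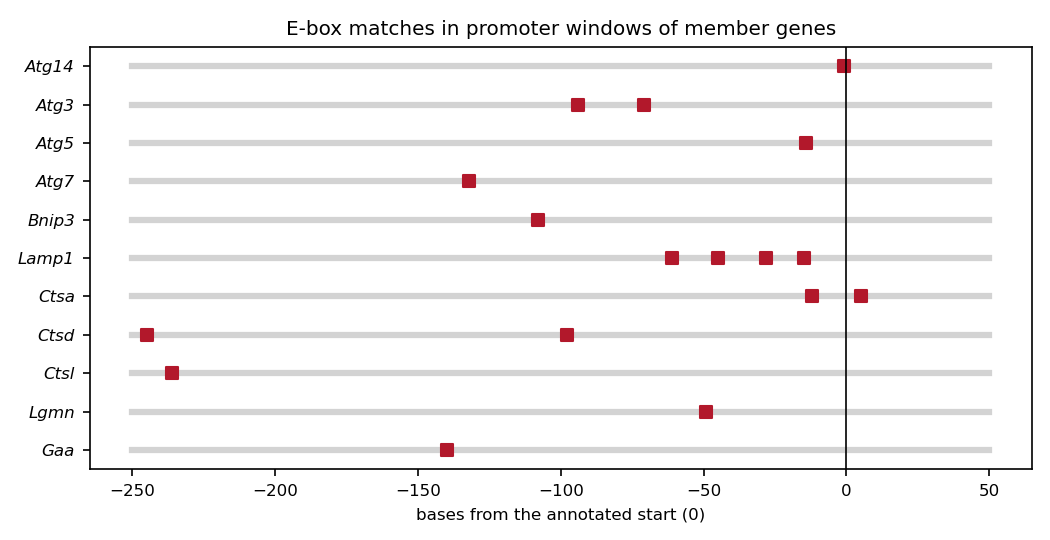
Place of each CACGTG match (square) in the promoter window (grey bar) of the 11 genes that have one (for Ctsa and Lgmn, 1 of 2 windows), in bases from the annotated start at 0. Lamp1 holds 4 matches within 61 bases of its start, and the matches of Ctsd and Ctsl at the left edge lie farthest from it.

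Bnip3 encodes an outer mitochondrial membrane protein that binds LC3 and marks mitochondria for autophagy. Its signal was 283, 353 and 329 on the KO arrays, 751, 582 and 697 on the HET arrays, and 712, 629 and 453 on the WT arrays. Every KO array was below every HET and WT array, while HET and WT overlapped. The mean was 322 ± 35.2 in KO, 677 ± 86.4 in HET and 598 ± 132 in WT (SD, n = 3 each). The log2 change was -0.87 ± 0.16 (SE) between KO and WT, with a 95% interval from -1.22 to -0.52 and an adjusted p of 0.00381. Against HET it was -1.07 ± 0.16, with an adjusted p of 0.00123. Bnip3 was called in both comparisons under each of the 23 alternative settings, with KO vs WT values from -1.06 to -0.73.

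Ulk1 encodes the kinase that starts autophagosome formation under the control of mTORC1 and AMPK. Its signal was 586, 553 and 665 on the KO arrays, 492, 537 and 527 on the HET arrays, and 465, 441 and 439 on the WT arrays. The 3 genotypes did not overlap, with KO highest and WT lowest. Ulk1 was called between KO and WT (log2 change 0.42 ± 0.10 SE, adjusted p = 0.0164). It was not called between KO and HET (0.21, 95% interval from -0.01 to 0.42, adjusted p = 0.228) or between HET and WT (0.21, from -0.01 to 0.42, adjusted p = 0.998). The KO vs WT call was lost without KO replicate 3 (adjusted p = 0.0543), without WT replicate 2 (adjusted p = 0.0581), without WT replicate 3 (adjusted p = 0.0595), and when its 2 probe sets were averaged (0.38, adjusted p = 0.118), where the second probe set read only 27.6 to 69.8. The second ULK kinase gene, Ulk2, had 456 ± 37.8 in KO and 437 ± 1.66 in WT (SD, n = 3 each) and was not called (0.06, adjusted p = 0.827).

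**Figure D3:**
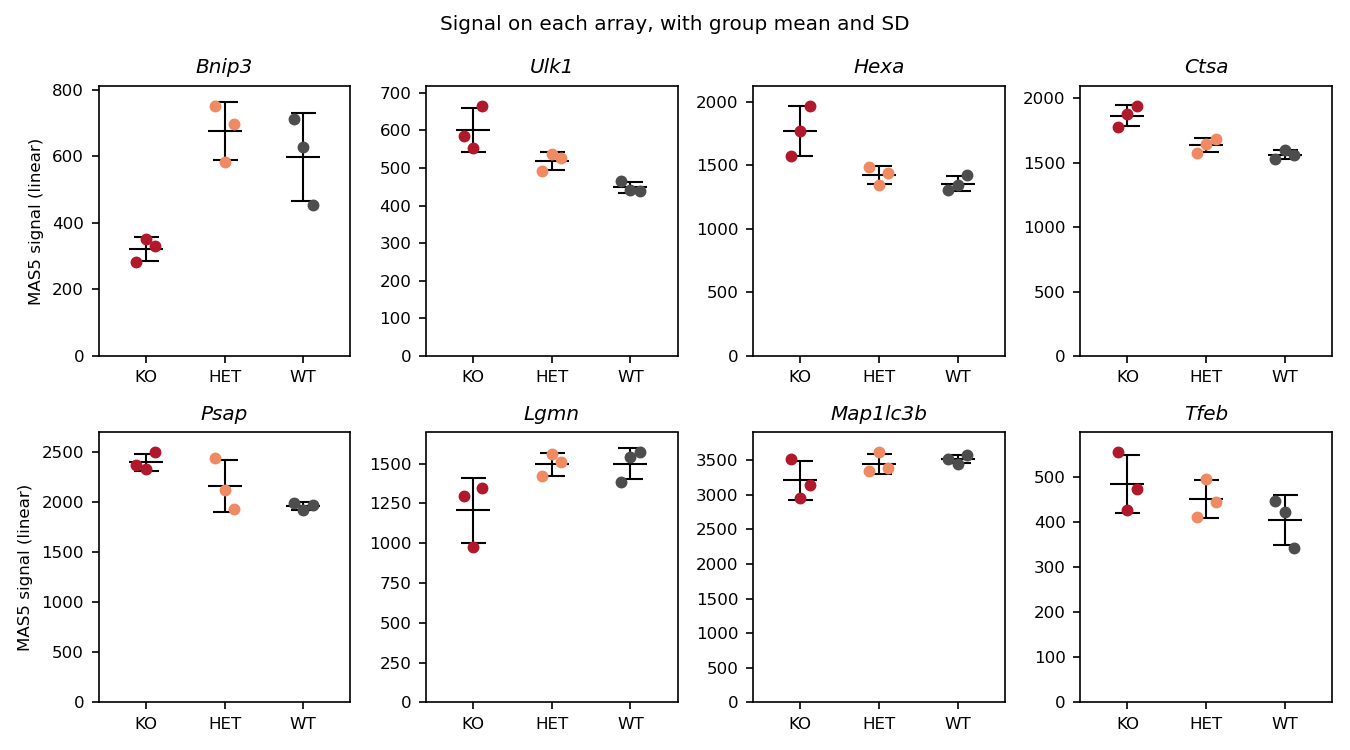
MAS5 signal on each array (points) for 8 genes, with KO, HET and WT from left to right in each panel; black bars give the group mean and SD of 3 arrays. KO points lie below all others for Bnip3 and Lgmn and above all WT points for Ulk1, Hexa, Ctsa and Psap, while the groups overlap for Map1lc3b and Tfeb.

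The lipid kinase complex that nucleates the membrane was not called in any comparison. Becn1, which encodes Beclin 1, read 4231, 4060.4 and 4227 on the KO arrays, 4037, 4104 and 4282 on the HET arrays, and 4524, 3932 and 4444 on the WT arrays. These groups overlapped, and the 95% interval of the KO vs WT change ran from -0.17 to 0.09. Becn1 has 5 probe sets. The 2 brightest had KO minus WT differences of -0.04 and 0.01, while 2 dim ones, with means of 12.0 to 91.8 in the 3 groups, were at -1.29 and -1.64. Pik3c3, the catalytic subunit, changed by 0.09 (adjusted p = 0.589), and Atg14, the subunit that directs the complex to autophagy, by 0.27 (adjusted p = 0.319).

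Wipi1 and Wipi2 encode proteins that read the lipid made by that complex. Wipi1 was dim, below the array median on 1 WT array, and Wipi2 had a change of 0.30 between KO and WT (adjusted p = 0.296). The second Wipi2 probe set went the other way: it read 210, 199 and 232 on the KO arrays, 264, 258 and 236 on the HET arrays, and 293, 306 and 288 on the WT arrays. The groups did not overlap there, with KO lowest, a log2 difference of -0.47 between KO and WT. The direction for Wipi2 therefore depends on the probe set.

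By their brightest probe sets the 6 conjugation genes Atg3, Atg5, Atg7, Atg12, Atg16l1 and Atg4b had KO vs WT changes between -0.25 and 0.11, and 0 of 6 were called. Of these, Atg4b encodes a protease that trims ATG8 proteins, and its change of -0.25 (adjusted p = 0.141) was the lowest of the 6. Atg3, the enzyme that attaches the lipid, read 1824, 1582 and 1945 on the KO arrays, 1965, 2157 and 2099 on the HET arrays, and 1955, 2289.7 and 1856 on the WT arrays. KO lay below HET and overlapped WT (-0.22 against HET, adjusted p = 0.175). Dimmer probe sets of these genes had KO minus WT differences of -0.40 for Atg12, -0.31 for Atg7, and -0.18 and -0.25 for Atg5. Those of Atg4b and Atg3 had -0.07 and 0.07. The direction for Atg5 and Atg3 therefore depends on the probe set.

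The 5 ATG8-family genes all had negative KO vs WT changes by their brightest probe sets, from -0.19 to -0.04, and none was called. The best known of them, Map1lc3b (LC3B), read 3521, 2958 and 3146 on the KO arrays, 3342, 3613 and 3389.7 on the HET arrays, and 3521, 3454 and 3570.2 on the WT arrays. One KO array was as high as the WT arrays, and the change of -0.14 had a 95% interval from -0.28 to 0.01 (adjusted p = 0.228). Gabarap changed by -0.04, Gabarapl2 by -0.14 and Map1lc3a by -0.19, while a dimmer Gabarapl2 probe set had a difference of 0.06. Gabarapl1 was dim, below the array median on 1 KO and 1 WT array, and its 95% interval was the widest of all 35 genes. Its change of -0.12 turned to 0.20 without WT replicate 2, and that of Gabarap lay at 0.004 or below in every setting. Sqstm1, which encodes the cargo receptor p62, averaged 1431 ± 176 in KO, 1571 ± 73.3 in HET and 1584 ± 185 in WT (SD, n = 3 each), and was not called (-0.15, adjusted p = 0.403). A dimmer Sqstm1 probe set went the other way, with a difference of 0.30 between KO and WT.

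The transcription factors of the lysosomal programme were not called. Tfeb read 554, 427 and 473 on the KO arrays, 411, 495 and 445 on the HET arrays, and 447, 423 and 342 on the WT arrays. The groups overlapped (0.26, 95% interval from -0.03 to 0.56, adjusted p = 0.245). Tfe3 changed by -0.14 between KO and WT (adjusted p = 0.4).

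Hexa encodes the alpha subunit of beta-hexosaminidase A, which removes a terminal sugar from GM2 ganglioside. Its signal was 1572, 1770.2 and 1966 on the KO arrays, 1487, 1343 and 1442 on the HET arrays, and 1302, 1341 and 1421 on the WT arrays. All KO arrays were above all others, and HET and WT overlapped. The change was 0.38 ± 0.09 (SE) between KO and WT, with an adjusted p of 0.0126, and 0.31 ± 0.09 between KO and HET, with an adjusted p of 0.0427. The KO vs WT call held when any single array was left out. The KO vs HET call was lost without each array in turn other than KO replicate 1, with adjusted p from 0.0555 to 0.143.

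Ctsa encodes cathepsin A, a carboxypeptidase that also protects beta-galactosidase and neuraminidase 1 in the lysosome. It read 1779.9, 1876 and 1941 on the KO arrays, 1579, 1646 and 1685 on the HET arrays, and 1530.3, 1603 and 1560.05 on the WT arrays. KO lay above HET and WT, which overlapped each other. The change between KO and WT was 0.25 ± 0.06 (SE), with an adjusted p of 0.0229. Against HET it was 0.19, with an adjusted p of 0.0934. The KO vs WT call was lost without KO replicate 2 (adjusted p = 0.0582), KO replicate 3 (0.0643), WT replicate 1 (0.0793), WT replicate 2 (0.0516) or WT replicate 3 (0.0714), and when averaged with a dim second probe set (0.11, adjusted p = 0.644).

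Psap encodes prosaposin, the precursor of the saposins that present sphingolipids to lysosomal hydrolases. It read 2369, 2332 and 2497 on the KO arrays, 2447, 2118 and 1930.4 on the HET arrays, and 1991, 1920.1 and 1973 on the WT arrays. KO lay above WT, and the HET arrays spread over both. The change between KO and WT was 0.29 ± 0.08 (SE), with an adjusted p of 0.035. A second Psap probe set read 639, 679 and 676 on the KO arrays, 648, 591 and 489 on the HET arrays, and 525, 514 and 496 on the WT arrays, a difference of 0.38 between KO and WT. The call was lost without KO replicate 1 (adjusted p = 0.0722), KO replicate 2 (0.0585), KO replicate 3 (0.0896), WT replicate 1 (0.0718), WT replicate 2 (0.111) or WT replicate 3 (0.087).

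The other lysosomal genes were not called, and some did not overlap between KO and WT all the same. How many of all tested genes separate in this way was not counted, so the separations below are descriptions only. Lgmn, which encodes the asparaginyl protease legumain, read 1299, 974 and 1349.7 on the KO arrays, 1419, 1562 and 1508 on the HET arrays, and 1387, 1540.4 and 1569.8 on the WT arrays. Every KO array was below every other array (-0.32, 95% interval from -0.56 to -0.08, adjusted p = 0.0795), and without KO replicate 3 Lgmn was called lower (-0.41, adjusted p = 0.0392). Lamp1, an abundant glycoprotein of the lysosomal membrane, read 3564, 3494 and 3527 in KO, 3926, 3897 and 3657 in HET, and 3639, 3762 and 3706 in WT. KO was lowest without overlap, by a small margin (-0.07 against WT, adjusted p = 0.437). Cathepsin genes Ctsd (0.11) and Ctsh (0.13) lay higher in KO than in WT without overlap and without a call. For Ctsd the HET arrays also lay above the WT arrays without overlap (0.15, not called). After quantile normalization Ctsh was called higher against WT (0.18, adjusted p = 0.0313) and against HET (0.18, adjusted p = 0.0372). By their brightest probe sets Ctsb (-0.002), Ctsz (-0.05) and the membrane protein gene Lamp2 (-0.02) lay close to 0. Dimmer Lamp2 probe sets had KO minus WT differences of -0.09 and -0.25 without overlap, and of -0.29 with overlap. Across the Ctsb probe sets bright enough to test, the difference ran from -0.26 to 0.38. The cholesterol exporter gene Npc1 had a change of 0.40 with a wide spread (adjusted p = 0.182), its partner Npc2 0.07, and the glycogen-degrading Gaa 0.21.

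Between HET and WT, 0 of 35 genes were called, against a background of 0.00968% (1 of 10331 genes, with 435 at an unadjusted p under 0.05). Changes ran from -0.20 to 0.26, with a median of 0.03. Foxo1 itself was not called between HET and WT (-0.61, adjusted p = 0.93), though its HET and WT arrays did not overlap. A gene not called in this comparison can therefore still differ. Between KO and HET, 2 of 35 were called, Bnip3 lower and Hexa higher, which is 5.71% against a background of 9.01% (4.56% higher and 4.45% lower). The KO vs HET and KO vs WT comparisons share the KO arrays. The median KO vs HET change was -0.05 in the autophagy core and 0.01 in the lysosomal group.

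Wider lists of 150 further genes covered the same pathways, and 130 of them were tested. Between KO and WT 11 were called higher and 4 lower (11.5% called, against the background of 11.9%), between KO and HET 8 higher and 4 lower (9.23%, against 9.01%), and between HET and WT 0. The other autophagy machinery had 7 of 34 higher and 0 lower between KO and WT, with a list median of 0.02. That is 20.6% called, against 11.9% of all genes in either direction and 6.09% higher. Between KO and HET 3 of the 34 were higher and 0 lower (8.82%, against 9.01% in either direction and 4.56% higher). Atg4c, a relative of Atg4b, read 222, 238 and 199.7 on the KO arrays, 108, 83.3 and 132 on the HET arrays, and 93.0, 71.9 and 64.2 on the WT arrays. KO was highest without overlap (1.51 ± 0.21 SE, adjusted p = 0.00052). Calcoco1, described as a receptor for autophagy of the endoplasmic reticulum, was higher (0.73, adjusted p = 0.00272). So were Plekhm1, an adaptor for fusion with the lysosome (0.36, adjusted p = 0.00161), and Snap29, a SNARE of the same fusion (0.39, adjusted p = 0.0155). The Snap29 call was lost without HET replicate 2 (adjusted p = 0.102) and without WT replicate 3 (adjusted p = 0.0697). Atg13, Atg10 and Bcl2l13, with changes from 0.35 to 0.60, were named after their values were seen. Dimmer second probe sets had KO minus WT differences of 0.06 for Atg13 and -0.13 for Bcl2l13, the latter the other way. These 3 genes were not recomputed under other settings.

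The other lysosomal enzymes and cofactors had 2 of 31 higher and 1 lower (9.68% called, against the background of 11.9%). Gm2a, the activator that lifts GM2 ganglioside to beta-hexosaminidase A, read 6778, 6102 and 6697 on the KO arrays, 5422, 5308 and 5047 on the HET arrays, and 4887, 4806 and 4787 on the WT arrays. The 3 groups did not overlap, with KO highest (0.43 ± 0.05 SE, adjusted p = 0.000238). Man2b1, the lysosomal alpha-mannosidase, was higher in KO (0.34, adjusted p = 0.0126), a call lost without WT replicate 3 (adjusted p = 0.056). Neu1, the neuraminidase that cathepsin A protects, read 200.4, 184 and 210.3 on the KO arrays, 374, 318 and 354 on the HET arrays, and 289.9, 318 and 303 on the WT arrays. KO was lowest without overlap (-0.61 ± 0.12 SE, adjusted p = 0.00571), though it was not called when its 3 probe sets were averaged (-0.35, adjusted p = 0.249).

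Of 22 other lysosomal membrane and sorting genes, 0 were higher and 2 lower (9.09% called, against the same background of 11.9%). Mcoln2, which encodes the cation channel TRPML2 of endosomes and lysosomes, read 119, 222 and 89.6 on the KO arrays, 226, 384 and 339 on the HET arrays, and 413, 521 and 501 on the WT arrays. KO was lowest and WT highest without overlap (-1.82 ± 0.28 SE, adjusted p = 0.00116). Scarb2, the carrier of glucocerebrosidase to the lysosome, was lower (-0.29, adjusted p = 0.0229), and that call was lost without KO replicate 2 (adjusted p = 0.0803) and when any WT array was left out (adjusted p = 0.0552, 0.088 and 0.0605 without replicates 1, 2 and 3). In the proton pump (V-ATPase) 1 of 15 was lower (6.67% called), Atp6v0a1 (-0.43, adjusted p = 0.043). That call was lost without each array other than KO replicate 2, HET replicate 1 and HET replicate 3, with adjusted p from 0.0508 to 0.145. In lysosomal mTORC1 and AMPK control 2 of 28 were higher (7.14% called): Slc38a9, the arginine sensor of the lysosomal membrane (0.45, adjusted p = 0.00356, though 0.23 and adjusted p = 0.0943 when its probe sets were averaged), and Fnip2, a folliculin partner (1.47 ± 0.28 SE, adjusted p = 0.00479).

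**Figure D4:**
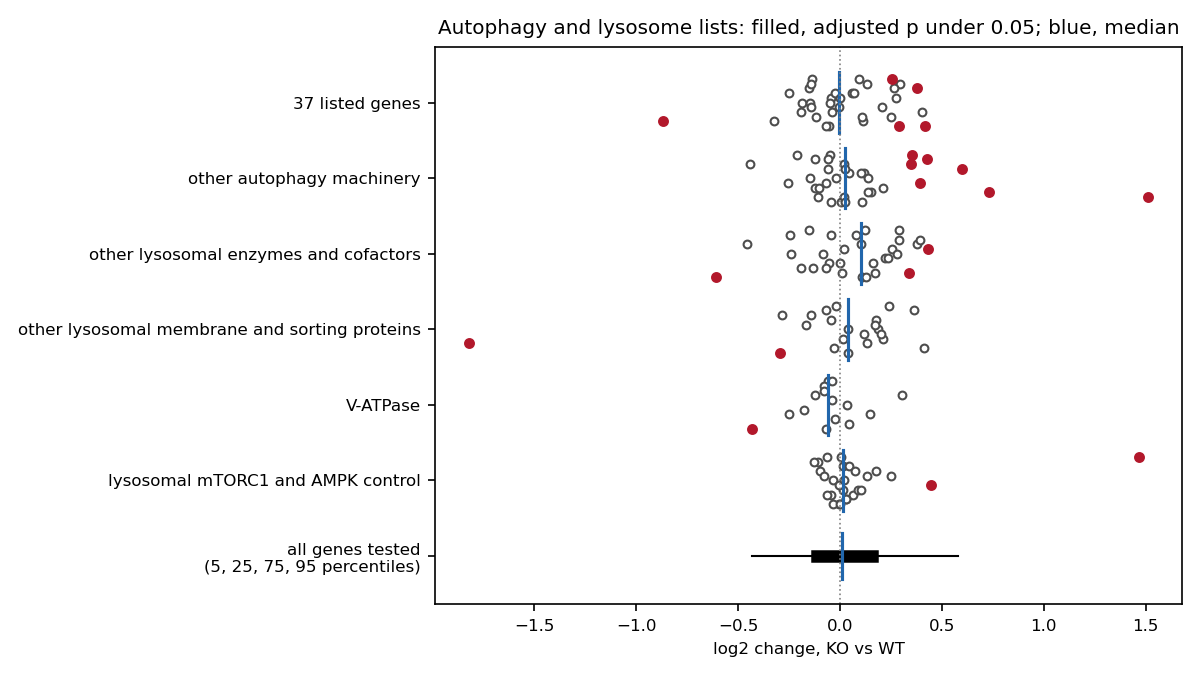
KO vs WT log2 change of each tested gene (points) in the 37-gene list and the 5 wider lists, with the spread of all genes tested at the bottom; filled points have an adjusted p under 0.05 and blue bars are medians. The list medians lie between -0.06 and 0.10, near the all-gene median of 0.01, and single genes such as Mcoln2, Atg4c and Fnip2 stand far from them.

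Markers of other cell types were read in the same comparison. Bulk signals cannot tell whether such transcripts came from other cells or from the sorted GC B cells. Of 20 myeloid markers 9 were tested, and 4 were called higher in KO than in WT (44.4%, against 6.09% of all genes tested). They were Cd68 (0.67, adjusted p = 0.00584), Lyz2 (1.78, adjusted p = 0.0122), Csf1r (2.46, adjusted p = 0.04) and Lyz1 (2.13, adjusted p = 0.0404). Changes of the 9 ran from -1.08 to 2.46, with 8 positive and 1 negative. Between KO and HET 1 of the 9 was called, higher in KO (11.1%, against 4.56% of all genes tested). The 20 summed to 3138, 2554 and 2353 on the KO arrays, 1181, 1058 and 2719.7 on the HET arrays, and 1745, 917 and 705 on the WT arrays. KO lay above WT, and 1 HET array was as high as the KO arrays. Dim throughout, under the median of each of the 9 arrays, were 10 of the 20: Itgam, Fcgr1, Cd14, Csf3r, Mpo, Cd163, C1qa, C1qc, Siglec1 and Clec4f. On HET replicate 3, the HET array with the high myeloid sum, Hexa was 1442 and Psap 1930.4, neither of them the highest of HET. Ctsa was 1685 there, the highest of HET but below every KO array. These are values of 1 array, and a link to the myeloid sum was not tested. Cd68 itself encodes a lysosomal membrane protein. Of 10 plasma cell markers 9 were tested and 6 were higher in KO (66.7%, against 6.09%), led by Slpi (1.11, adjusted p = 1.52e-05), Edem1 (0.52, adjusted p = 0.000371) and Irf4 (0.61, adjusted p = 0.000478). They summed to 38105 to 41488 in KO, 32125 to 34982 in HET and 31940.1 to 33182 in WT, and Tnfrsf17 was dim throughout. Of 8 marginal zone B cell markers, 6 were higher (75%, against 6.09%), led by Cr2 (0.74, adjusted p = 3.36e-05), with sums of 17039 to 18735 in KO, 12458 to 13795 in HET and 12689 to 13074 in WT. Of 10 dendritic cell markers 3 were tested and 1 was higher (33.3%, against 6.09%), Sirpa (0.65, adjusted p = 0.00146), with sums of 1484 to 1893 in KO, 1513 to 1559 in HET and 1214 to 1411 in WT. Of 12 T cell markers 1 was tested and 0 called. Whether other cells had a part in the lysosomal changes was not tested.

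**Figure D5:**
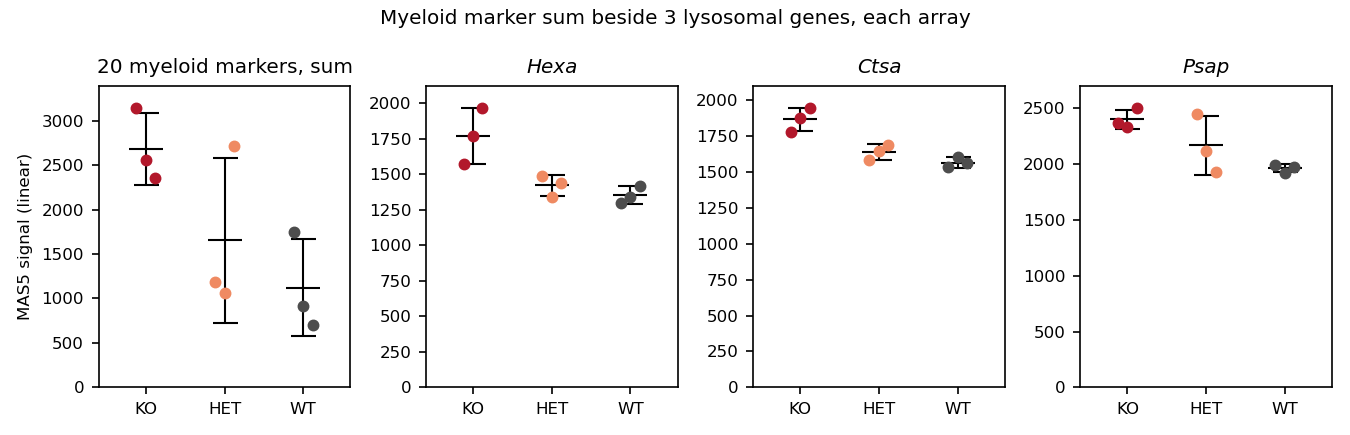
MAS5 signal on each array (points) of the 20 myeloid markers in sum and of Hexa, Ctsa and Psap, with KO, HET and WT from left to right and black bars for the group mean and SD of 3 arrays. The HET array with a myeloid sum of 2719.7 sits among the KO arrays in the first panel and below them for Hexa, Ctsa and Psap.

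Xist, a transcript of female cells, split every genotype: it was high on 2 KO, 1 HET and 2 WT arrays and low on 1 KO, 2 HET and 1 WT arrays. Within the high arrays the KO minus WT difference was -0.75 for Bnip3, 0.37 for Ulk1, 0.27 for Hexa, 0.21 for Ctsa and 0.27 for Psap. Within the low arrays it was -1.11 for Bnip3, 0.51 for Ulk1, 0.59 for Hexa, 0.34 for Ctsa and 0.33 for Psap. The low arrays are 1 KO and 1 WT array, and since the KO and WT arrays of these 5 genes do not overlap, no subset could give another direction, so these values show sizes only.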

How the data were processed

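The deposited table gives each probe set 1 intensity (MAS5 signal) per array. Per the submitters' processing notes the authors used MAS5, with no version given in the sources used here. All arrays share a mean of 500 once 2% of the signals are trimmed at either end. Of 45101 probe sets, 64 were controls, 34945 had 1 gene symbol, 932 had several and 9160 had none. An Entrez match to RefSeq (GRCm38.p6) was found for 34741 of the single-symbol probe sets and altered 0 symbols.

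The log2 scale had an offset of 2.09 added to each signal (the 10th percentile over the whole table), and arrays were not normalized further. A probe set entered the test if it was at or above its array's median on 3 or more of the 9 arrays (19479 with 1 symbol), and the brightest stood for its gene. All 9 arrays entered a single limma fit (limma 3.58.1, R 4.3.3, eBayes with trend). The procedure was also run on simulated data, where the check covered only the recovery of the largest changes put in. Tests were two-sided, and every adjusted p is limma's. The number of arrays limits the precision.

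The 37 genes and the lists were chosen with earlier results of these data known. Named were all 37 genes, up to 4 called genes per direction of each wider list by smallest adjusted p, and leading called markers. Alternatives changed the offset, scaling, filter, probe set rule, model and arrays used. Listed genes without a single-symbol probe set were not analysed here. RefSeq served for names and promoter windows, since no build is given for the table.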

Additional observations from a re-analysis of the deposited data

How the results depend on the processing

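The 35 tested genes, the wider-list genes and the counts below were recomputed under 14 other settings and 9 fits that left out 1 array each. Atg13, Atg10, Bcl2l13, the Foxo genes and the cell type markers were not. The 5 genes called between KO and WT became 3 when the probe sets of a gene were averaged and 7 with arrays centred on their median, and 2 to 5 when single arrays were left out. All genes called between KO and WT numbered 1233, and 950 to 2081 under the 14 other settings, highest with arrays centred on their median. They numbered 769 to 1180 when single arrays were left out, lowest without WT replicate 2 or WT replicate 3. Between KO and HET, the 2 called genes became 4 with arrays centred on their median and 1 with no filter, eBayes without trend, only the arrays of both groups, or arrays centred on the median of the tested genes (the last chosen after seeing the data), and 1 to 2 when single arrays were left out. All genes called between KO and HET numbered 931, and 635 to 1373 under the other settings. They numbered 543 to 893 when single arrays were left out, lowest without HET replicate 2 (543) and HET replicate 3 (611). Between HET and WT, 1 gene of all was called, 3 with robust eBayes, array weights or only the arrays of both groups, and 1 to 3 when single arrays were left out. None of the 35 was called there in any setting. Psap lost its KO vs WT call with no filter (adjusted p = 0.0535), eBayes without trend (0.0822) and centring on the tested genes (0.0504). Averaging probe sets also ended the calls of Plekhm1 (0.162), Snap29 (0.0579) and Atp6v0a1 (0.178), the array median scale those of Snap29 (0.0554) and Man2b1 (0.0655), eBayes without trend those of Scarb2 (0.052) and Atp6v0a1 (0.0775), and no filter that of Atp6v0a1 (0.065). Hexa between KO and HET was also lost with quantile normalization (0.0591) and on the array median scale (0.133). Of the changes called in the reported fit or in the alternative, 1 turned direction: Becn1 between KO and HET was 0.01 by its brightest probe set and -0.88 when its 5 probe sets were averaged, among them 2 dim ones. With 3 arrays a group, leaving 1 out assumes that the groups share one spread. No paired analysis was possible because the sample titles share no replicate numbers between genotypes. Dim genes such as Wipi1, Gabarapl1 and Ctsl are the ones that signal limits most.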
